A study of Homo sapiens with 6 samples.

Results

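The proteasome genes of the L428 Hodgkin lymphoma cell line were followed after inhibition of the microRNA miR-9. They were found by symbol: every gene whose only platform symbol begins with PSM, a letter from A to G and a number was taken, PSMB8 and PSMB9 were left out by the rule, and each gene was read at its probe set with the highest mean over all 6 arrays. The rule gave 48 of the 19775 genes that have a probe set of their own, read by 95 probe sets. Of these, 40 encode proteasome subunits, activators, an inhibitor or assembly chaperones, called proteasome genes here. The other 8 only share the first letters of the symbol, and they are given apart. PSMA6 and PSME2 lie on probe sets that carry a further symbol, so they are not analysed here, and neither are PSMB11, PSMC5, PSMD7 and PSMD13.

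L428 is an established line of Hodgkin lymphoma, a tumour of B cell origin. Cells were electroporated by nucleofection either with an LNA (locked nucleic acid, a modified oligonucleotide) that inhibits miR-9, called the miR-9 LNA, or with a scrambled LNA, and total RNA was taken 9 h later. The 6 Affymetrix HG-U133 Plus 2.0 arrays fall into 3 of the miR-9 LNA and 3 of the scrambled LNA, numbered 1 to 3 in each group, and the deposited values are log2 expression after RMA. All arrays come from a single cell line, no untransfected sample is among them, and the labels do not say whether the replicates were separate cultures, so p-values measure only the spread between these samples, which may be technical. Each array reads the RNA of a whole culture, so a change in the share of cells and a change in the level per cell cannot be told apart.

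The proteasome is the protease that breaks down proteins marked with ubiquitin. Its core particle is a barrel of alpha rings, which control entry, around beta rings, which hold the proteolytic sites. A regulatory particle caps the barrel: its base of ATPases and scaffold subunits binds and unfolds the substrate, and its lid removes the ubiquitin. Other activators, of the PSME family, can bind the barrel in place of that cap, and dedicated chaperones assist assembly. When proteasomes are inhibited, the transcription factor NFE2L1 raises the genes of most subunits together through antioxidant response elements in their promoters. Proteasome inhibitors are used against plasma cell tumours and mantle cell lymphoma, and the beta subunit PSMB5 is the main target of the inhibitor bortezomib.

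The microRNA that the LNA inhibits is shown first, with its seed (bases 2 to 8) in capitals, since the seed is what pairs with target mRNAs. The mature sequence from RefSeq (GRCh38.p14) is the same for its MIR9-1, MIR9-2 and MIR9-3 genes, at chr1:156420392-156420414 on the minus strand, chr5:88666902-88666924 on the minus strand and chr15:89368032-89368054 on the plus strand.
hsa-miR-9-5p: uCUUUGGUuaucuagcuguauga

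Promoter windows of 300 bases (250 before the start site and 50 from it on) are shown for PSMD1, PSMD5 and PSMD12, since these are among the 10 proteasome genes with the smallest p and hold the core of an antioxidant response element, TGACNNNGC, in capitals below. The sequences are from RefSeq (GRCh38.p14) and run 5′ to 3′ on the gene's strand. PSMD1 lies at chr2:231056617-231056916 on the plus strand, PSMD5 at chr9:120842873-120843172 on the minus strand and PSMD12 at chr17:67366528-67366827 on the minus strand.
PSMD1: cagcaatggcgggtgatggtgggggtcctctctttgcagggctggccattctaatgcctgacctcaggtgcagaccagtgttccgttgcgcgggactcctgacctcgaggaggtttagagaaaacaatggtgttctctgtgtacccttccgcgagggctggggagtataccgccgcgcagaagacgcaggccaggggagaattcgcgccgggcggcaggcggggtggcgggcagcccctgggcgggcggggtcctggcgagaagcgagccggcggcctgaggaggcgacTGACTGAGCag
PSMD5: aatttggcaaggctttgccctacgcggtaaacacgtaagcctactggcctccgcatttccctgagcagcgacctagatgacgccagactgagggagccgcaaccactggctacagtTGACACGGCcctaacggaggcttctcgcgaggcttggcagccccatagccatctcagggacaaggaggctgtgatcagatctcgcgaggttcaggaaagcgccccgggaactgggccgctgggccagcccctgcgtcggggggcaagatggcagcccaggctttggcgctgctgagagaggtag
PSMD12: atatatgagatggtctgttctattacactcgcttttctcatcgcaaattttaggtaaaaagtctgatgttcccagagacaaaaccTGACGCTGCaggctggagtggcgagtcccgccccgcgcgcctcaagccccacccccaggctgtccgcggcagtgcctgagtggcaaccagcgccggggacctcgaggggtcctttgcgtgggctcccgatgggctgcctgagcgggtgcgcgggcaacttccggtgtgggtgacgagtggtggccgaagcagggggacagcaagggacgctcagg

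The match begins at base 40 after the start site in PSMD1, and at bases -134 and -165 in PSMD5 and PSMD12. Searched on both strands, TGACNNNGC was present in a window of 12 of the 34 proteasome genes found in the promoter table (35.3%) and of 16.1% of all 27305 genes in it. The CCAAT box, CCAAT, was present in 16 of 34 (47.1%) and in 39.7% of all genes. Each motif was counted on its own, whether or not matches of the other overlapped it. Genes with several windows had more chances of a match, and a match is a description of the letters, not of binding.

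In the deposited values, all 39 proteasome genes bright enough to test lay slightly higher with the miR-9 LNA at their brightest probe set. None of these differences passed the test. The scaffold subunits PSMD2 and PSMD1, the activator PSME4 and the chaperone PSMD10 lay furthest above the scrambled LNA, the first of them by 1.30-fold. Nearly every mRNA as bright as these lay higher too, and after quantile normalization the proteasome genes centred near 0. The differences are largest between the arrays numbered 1. They are smaller between the arrays numbered 2 or 3, except for a few genes such as PSMD2, PSMD5 and PSME4, which differed about equally within each number.

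Differences are given as log2 values, miR-9 LNA arrays minus scrambled arrays, with standard errors from limma. Of the 40 proteasome genes, 39 passed the level filter, a mean log2 value of at least 7.11 over the 6 arrays. The exception was PSMA8, an alpha subunit known from the testis. In the deposited values all 39 lay higher with the miR-9 LNA (21 of 39 after quantile normalization), by 0.058 to 0.38 with a median of 0.20, where 70.0% of the 12367 genes tested lay higher and their median was 0.083. Limma called 0 of the 39 at an adjusted p under 0.05, as it called 0 of all 12367 genes (0%), and the adjusted p of the 39 ran from 0.296 to 0.743. At an unadjusted limma p under 0.05 there were 14 of 39 in the higher direction (35.9%), against 17.4% of all genes, and 0 in the lower direction, against 0.598% of all genes. The groups did not overlap in the higher direction for 12 of 39 (30.8%), against 22.0% of all genes, and in the lower direction for 0 of 39, against 3.83%. Counted over all 45 tested genes that the rule matches, 44 lay higher, 15 had an unadjusted p under 0.05 and 14 did not overlap in the higher direction.

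**Figure D1:**
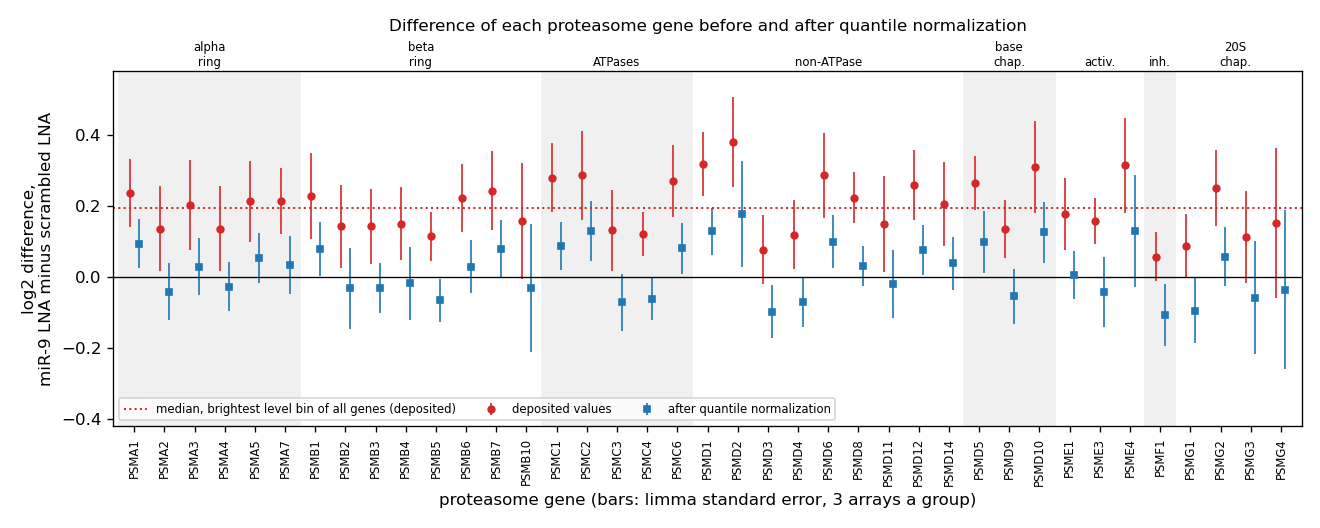
Log2 difference of each of the 39 tested proteasome genes (miR-9 LNA minus scrambled LNA, 3 arrays a group), in the deposited values (circles) and after quantile normalization (squares). Bars are limma standard errors and genes are grouped by role. All 39 circles lie above 0, while 21 squares lie above 0 and 18 below.

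All tested genes were ranked by their mean level into 5 bins of equal size, and 36 of the 39 proteasome genes lie in bin 5, the brightest, and 3 in bin 4. Over all genes of bin 5 the median log2 difference was 0.20, 96.5% lay higher, 33.3% had an unadjusted limma p under 0.05 in the higher direction and 37.0% did not overlap in that direction. The 36 proteasome genes of that bin had a median difference of 0.20, with 13 at an unadjusted p under 0.05 (36.1%) and 11 that did not overlap (30.6%). The proteasome genes thus stood close to other mRNAs of their level by each of these measures. Quantile normalization, which gives each array the same distribution of values, left the 39 genes with a median of 0.029, with 21 higher and 18 lower. It left 0 of them at an unadjusted p under 0.05, where 1.88% of all genes were higher and 2.34% lower at that p, and 0 without overlap, where 5.40% of all genes were higher and 6.40% lower (4.32% and 2.95% in bin 5).

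**Figure D2:**
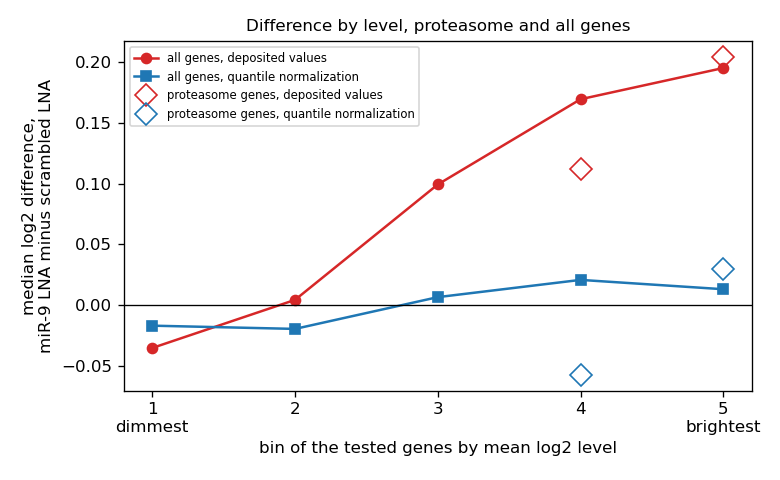
Median log2 difference (miR-9 LNA minus scrambled LNA) over 5 bins of the 12367 tested genes from dimmest to brightest, for all genes (lines) and for the proteasome genes of that bin (diamonds, 3 genes in bin 4 and 36 in bin 5). In the deposited values bin 5 of all genes is at 0.20 and its proteasome genes at 0.20. After quantile normalization they are at 0.013 and 0.030.

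The arrays did not contribute evenly. Relative to each gene's mean over the 6 arrays, the median proteasome gene lay at 0.24, 0.091 and 0.00014 on miR-9 LNA arrays 1, 2 and 3, against -0.24, 0.026 and -0.097 on scrambled LNA arrays 1, 2 and 3. Scrambled LNA array 1 was the lowest of the 6 for 28 of 39 proteasome genes, and miR-9 LNA array 1 was the highest for 28 of 39. Of all genes of bin 5, 75.7% were lowest on the first of these arrays and 58.1% highest on the second. Scrambled LNA array 1 also stands apart in the table as a whole: its 90th percentile was 9.28, against 9.45 and 9.47 on the other scrambled arrays and 9.53 to 9.57 on the miR-9 LNA arrays, and dap, a control RNA added to each sample, was read at 10.19 there and at 8.06 to 8.67 on the other arrays. Without that array the median difference of the 39 genes was 0.16, with 37 higher, 2 lower and 7 at an unadjusted limma p under 0.05, all higher. Of all genes 12.9% were higher and 1.16% lower at that p without the array, and of bin 5 22.8% and 0.647%. The 3'-minus-5' difference of the GAPDH and ACTB control probe sets, which grows as RNA degrades, was 0.46, 0.20 and 0.11 on miR-9 LNA arrays 1, 2 and 3, against 0.38, 0.17 and 0.10 on scrambled arrays 1, 2 and 3. With it as a covariate the median difference of the 39 genes was 0.20 and 9 of 39 had an unadjusted limma p under 0.05, all higher (23.1%), against 23.1% of all genes and 42.9% of bin 5 in that fit. L428 markers were bright on all arrays (CCL17, BATF3, IRF4, TRAF1, FSCN1 and TNFRSF8 all passed the filter), while 0 of 4 T cell markers, 1 of 3 monocyte markers and 1 of the 3 B cell markers read passed it. All 3 fibroblast markers passed it, COL1A2 and DCN close to the filter. The B cell marker CD79A, also close to it, differed by -0.073 ± 0.058.

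**Figure D3:**
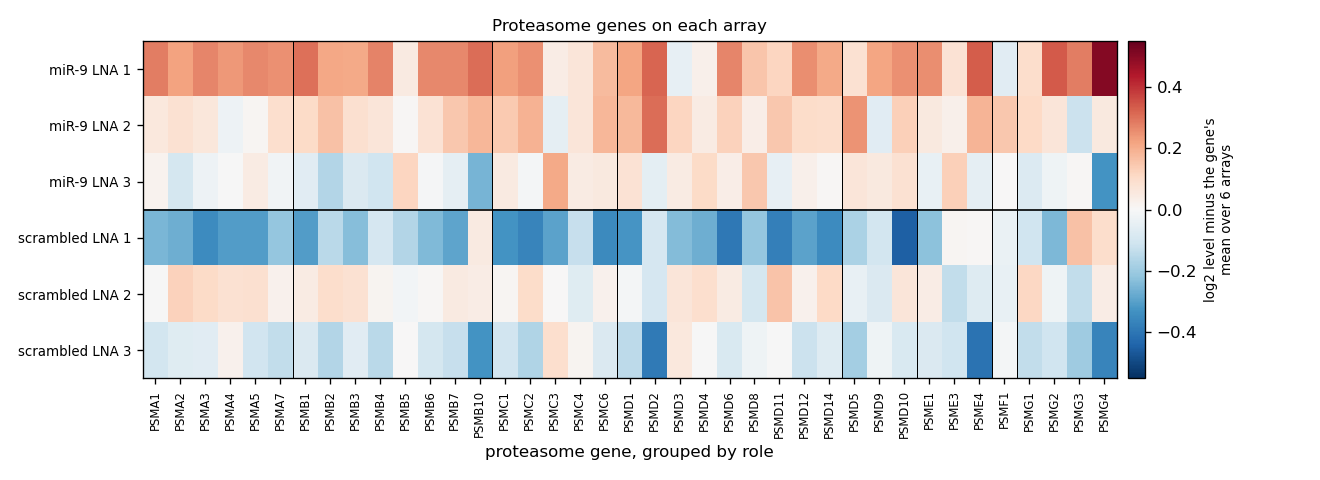
Log2 level of each of the 39 tested proteasome genes on each of the 6 arrays, minus the gene's mean over the arrays (red higher, blue lower), with genes grouped by role. The row of scrambled LNA array 1 is the lowest for 28 genes and the row of miR-9 LNA array 1 the highest for 28.

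Over all tested probe sets, deviations from the group means correlated at r = 0.634 between the arrays numbered 3. Between those numbered 1 and 2 the correlation was weak, at 0.231 and 0.193, and arrays of unlike number reached 0.168. With this limit, the differences were also read within each number. The median difference of the 39 proteasome genes was 0.46 between the arrays numbered 1, 0.062 between those numbered 2 and 0.089 between those numbered 3. In these pairs 38, 30 and 33 of the 39 genes lay higher with the miR-9 LNA. All genes of bin 5 had pair medians of 0.40, 0.091 and 0.10. Over all 3 pairs 26 of 39 proteasome genes were higher (66.7%), against 44.9% of all genes and 69.0% of bin 5. With the replicate number as a block, limma again called 0 of the 39 genes at an adjusted p under 0.05 (lowest 0.159), and 12 of the 39 had an unadjusted p under 0.05, all higher, against 25.9% of all genes higher and 0.784% lower, and 46.1% higher in bin 5. After quantile normalization with the block, PSMD2, PSMD1 and PSMC2 were the 3 of 39 at that p, against 5.44% of all genes higher and 4.52% lower, and 4.04% and 3.88% in bin 5. Without both arrays numbered 1, 34 of the 39 lay higher, with a median of 0.084, and 3 had an unadjusted p under 0.05, against 9.55% of all genes higher and 1.38% lower. In bin 5 these shares were 15.9% and 1.54%. Over the whole table the block took the probe sets at an unadjusted p under 0.05 to 6218, against 3926 without it.

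**Figure D4:**
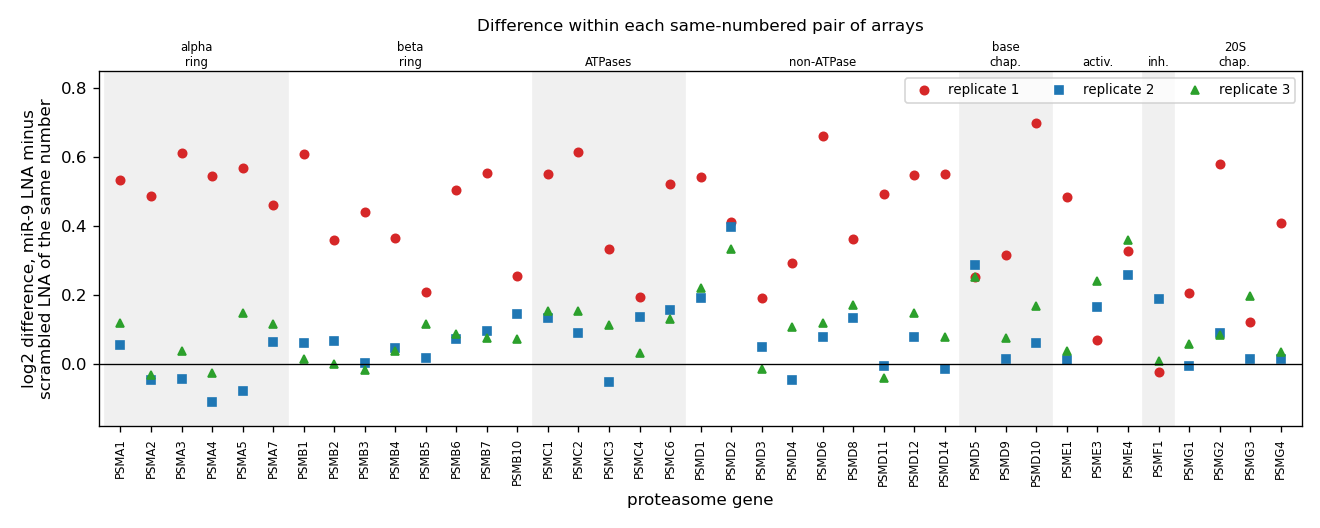
Log2 difference between the miR-9 LNA array and the scrambled LNA array of the same number, for each of the 39 tested proteasome genes grouped by role (circles replicate 1, squares replicate 2, triangles replicate 3). Circles have a median of 0.46, squares of 0.062 and triangles of 0.089, and for PSMD2, PSMD5 and PSME4 all 3 lie close together.

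The alpha ring was read by 6 tested genes, all of which lay higher, with a median difference of 0.21 (0.032 after quantile normalization) and 1 of 6 at an unadjusted limma p under 0.05 (17.4% of all genes and 33.3% of bin 5 in the higher direction). The groups did not overlap for 1 of 6 (22.0% of all genes and 37.0% of bin 5). PSMA1 was at 13.20, 12.97 and 12.93 on miR-9 LNA arrays 1, 2 and 3, against 12.66, 12.91 and 12.81 on the scrambled arrays, a difference of 0.24 ± 0.096 (limma adjusted p = 0.334). The groups did not overlap, but miR-9 LNA array 3 and scrambled array 2 were nearly level. Its 2 other probe sets gave 0.23 ± 0.091 and 0.21 ± 0.096. PSMA7 differed by 0.21 ± 0.093, PSMA5 by 0.21 ± 0.11 and PSMA3 by 0.20 ± 0.13. PSMA2 and PSMA4 show how much of the ring's difference lay in the arrays numbered 1. PSMA4 was at 12.52, 12.25 and 12.28 on the miR-9 LNA arrays and at 11.97, 12.36 and 12.30 on the scrambled arrays, and its pair differences were 0.55, -0.11 and -0.025. For PSMA2 they were 0.49, -0.047 and -0.032. The alpha ring as a group had pair medians of 0.54, -0.045 and 0.077. After quantile normalization PSMA2 and PSMA4 were the alpha genes on the lower side, at -0.041 and -0.027. The testis subunit PSMA8 lay near the lowest values of the arrays, at 6.37, 6.46 and 6.39 on the miR-9 LNA arrays and 6.52, 6.51 and 6.42 on the scrambled arrays. In the fit without the filter PSMA8 lay lower, by -0.079 ± 0.053.

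The beta ring carries the proteolytic sites and was read by 8 tested genes, with a median difference of 0.15 (-0.024 after quantile normalization), all higher and 1 of 8 at an unadjusted limma p under 0.05 (17.4% of all genes and 33.3% of bin 5). The groups did not overlap for 1 of 8 (22.0% of all genes and 37.0% of bin 5). PSMB6, the caspase-like subunit, was at 12.01, 11.82 and 11.74 on the miR-9 LNA arrays and at 11.50, 11.75 and 11.65 on the scrambled arrays, a difference of 0.22 ± 0.095 (limma adjusted p = 0.347). Its groups overlapped, since scrambled array 2 lay above miR-9 LNA array 3. PSMB7, the trypsin-like subunit, was at 12.91, 12.79 and 12.60 on the miR-9 LNA arrays and at 12.35, 12.69 and 12.52 on the scrambled arrays, a difference of 0.24 ± 0.11 (limma adjusted p = 0.366), also with overlap. PSMB5, the chymotrypsin-like subunit, was at 11.24, 11.20 and 11.31 on the miR-9 LNA arrays and at 11.03, 11.18 and 11.19 on the scrambled arrays, a difference of 0.12 ± 0.069 (limma adjusted p = 0.458). Its groups did not overlap, although miR-9 LNA array 2 and scrambled array 3 were almost equal, and after quantile normalization it lay at -0.066. PSMB10 replaces PSMB7 in the immunoproteasome, the form that favours peptides for antigen presentation. It was at 11.08, 10.96 and 10.52 on the miR-9 LNA arrays and at 10.82, 10.81 and 10.44 on the scrambled arrays, a difference of 0.16 ± 0.16, and both arrays numbered 3 were low. Its differences within the numbers were 0.26, 0.14 and 0.073. The other immunoproteasome subunits, PSMB9 and PSMB8, left out by the rule, differed by 0.23 ± 0.15 and 0.14 ± 0.10 (limma adjusted p = 0.491 and 0.544). Within the numbers PSMB9 differed by 0.71, -0.034 and 0.030, and PSMB8 by 0.37, 0.091 and -0.055. Most of both differences thus lay in the arrays numbered 1: without these, PSMB9 was at -0.0018 and PSMB8 at 0.018, and after quantile normalization they were at 0.039 and -0.045. The structural subunits PSMB1, PSMB2, PSMB3 and PSMB4 differed by 0.14 to 0.23, and after quantile normalization 5 of the 8 beta genes lay on the lower side.

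The ATPases of the base, a ring that unfolds substrates, were read by 5 genes, all higher, with a median difference of 0.27 (0.081 after quantile normalization), 2 of 5 at an unadjusted limma p under 0.05 (17.4% of all genes and 33.3% of bin 5) and 3 of 5 without overlap (22.0% of all genes and 37.0% of bin 5). PSMC1, whose yeast counterpart opens the gate of the core, was at 11.85, 11.78 and 11.68 on the miR-9 LNA arrays and 11.30, 11.64 and 11.53 on the scrambled arrays, a difference of 0.28 ± 0.097 (limma adjusted p = 0.303). PSMC6 was at 11.40, 11.41 and 11.28 on the miR-9 LNA arrays and at 10.88, 11.25 and 11.15 on the scrambled arrays, a difference of 0.27 ± 0.10 (limma adjusted p = 0.318). In both genes scrambled array 1 was the lowest array by a clear margin, and in both the groups did not overlap. PSMC2 differed by 0.29 ± 0.13, with overlap, and PSMC4 by only 0.12 ± 0.061, without overlap. Its 3 miR-9 LNA arrays lay close to each other, at 10.41, 10.41 and 10.39. After quantile normalization PSMC1, PSMC2 and PSMC6 lay at 0.088, 0.13 and 0.081, and PSMC3 and PSMC4 at -0.070 and -0.060.

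Of the 9 tested non-ATPase subunits of the regulatory particle all lay higher, with a median difference of 0.22 (0.039 after quantile normalization), 5 of 9 at an unadjusted limma p under 0.05 (17.4% of all genes and 33.3% of bin 5) and 4 of 9 without overlap (22.0% of all genes and 37.0% of bin 5). PSMD2, a scaffold of the base on which ubiquitin shuttle factors dock, was at 11.43, 11.42 and 11.06 on miR-9 LNA arrays 1, 2 and 3, against 11.02, 11.02 and 10.72 on scrambled arrays 1, 2 and 3. Both arrays numbered 3 were low, and each miR-9 LNA array lay above its counterpart by a like amount, 0.41, 0.40 and 0.34. The difference was 0.38 ± 0.13 (limma adjusted p = 0.298), and 0.18 after quantile normalization, the largest among the 39 genes in each case. With the replicate block the limma adjusted p of PSMD2 was 0.159. This was the lowest value of that fit over all tested probe sets, and PSMD1, PSMD5 and PSME4 shared it.

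PSMD1, the other large scaffold of the base, was at 11.70, 11.66 and 11.56 on the miR-9 LNA arrays and at 11.16, 11.47 and 11.34 on the scrambled arrays, a difference of 0.32 ± 0.090 (limma adjusted p = 0.296). Its groups did not overlap, and its second probe set gave 0.28 ± 0.094, also without overlap. The lid subunits PSMD8 and PSMD12 followed. PSMD8 was at 10.81, 10.70 and 10.81 on the miR-9 LNA arrays and at 10.45, 10.56 and 10.63 on the scrambled arrays, a difference of 0.22 ± 0.072 (limma adjusted p = 0.296). PSMD12 was at 12.20, 12.05 and 11.97 on the miR-9 LNA arrays and at 11.65, 11.97 and 11.82 on the scrambled arrays, a difference of 0.26 ± 0.099 (limma adjusted p = 0.318), where miR-9 LNA array 3 and scrambled array 2 were nearly level. The lid subunit PSMD6 differed by 0.29 ± 0.12, with overlap. PSMD14, the deubiquitinase of the lid, differed by 0.21 ± 0.12, and PSMD4, a ubiquitin receptor, by 0.12 ± 0.097. For PSMD4 the 2 other bright probe sets gave 0.085 ± 0.081 and 0.11 ± 0.10. PSMD3 had the smallest difference of the regulatory particle, 0.077 ± 0.097, and PSMD11 differed by 0.15 ± 0.13, with 0.49, -0.0059 and -0.040 within the numbers.

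**Figure D5:**
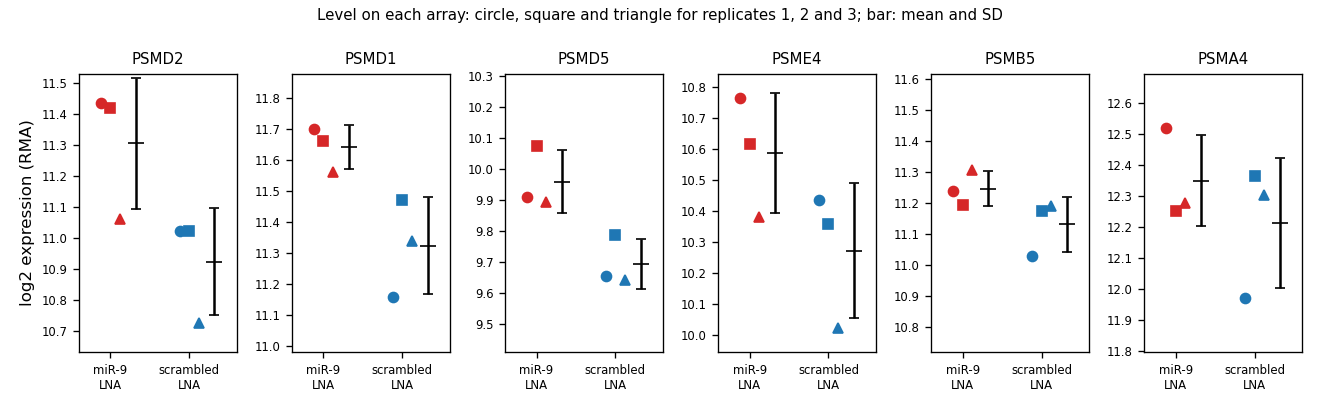
Log2 expression on each array for PSMD2, PSMD1, PSMD5, PSME4, PSMB5 and PSMA4, with the miR-9 LNA in red and the scrambled LNA in blue. Each panel spans the same log2 range, and the black bars are means and SDs of 3 arrays. The groups overlap for PSME4 and PSMA4 and not for the other 4 genes.

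The 3 chaperones that guide assembly of the base had a median difference of 0.26 (0.098 after quantile normalization), with 2 of 3 without overlap (22.0% of all genes and 37.0% of bin 5). PSMD5 was at 9.91, 10.08 and 9.89 on the miR-9 LNA arrays, against 9.66, 9.79 and 9.64 on the scrambled arrays. Its groups did not overlap, and the differences within the numbers, 0.25, 0.29 and 0.25, were about equal. The difference was 0.26 ± 0.076 (limma adjusted p = 0.296), and 0.098 after quantile normalization. PSMD10, also known as gankyrin, was at 11.42, 11.30 and 11.25 on the miR-9 LNA arrays and at 10.72, 11.24 and 11.08 on the scrambled arrays, a difference of 0.31 ± 0.13 (limma adjusted p = 0.341). There scrambled array 1 lay far below all others, and without it the PSMD10 difference was 0.16. PSMD9 differed by 0.14 ± 0.081. The 4 chaperones of the core differed by 0.087 to 0.25, with 0 of 4 without overlap (same shares). PSMG2 led them, at 11.81, 11.54 and 11.45 on the miR-9 LNA arrays and at 11.22, 11.45 and 11.36 on the scrambled arrays, a difference of 0.25 ± 0.11 (limma adjusted p = 0.343) with overlap. PSMG4 had the widest spread of all 39 genes, at 10.32 ± 0.42 on the miR-9 LNA arrays and 10.17 ± 0.25 on the scrambled arrays (SD, n = 3 each), and both of its arrays numbered 3 were low.

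Activators and the inhibitor closed the list. Of the 3 activators 1 had groups without overlap (22.0% of all genes and 37.0% of bin 5). PSME3, the nuclear activator, was at 10.86, 10.81 and 10.91 on the miR-9 LNA arrays and at 10.79, 10.64 and 10.67 on the scrambled arrays, a difference of 0.16 ± 0.066 (limma adjusted p = 0.341). The groups did not overlap. Scrambled array 1 was here the highest of its group, and after quantile normalization the PSME3 difference was -0.042. Its 2 other bright probe sets gave 0.20 ± 0.12 and 0.16 ± 0.11, with overlap. PSME4, an activator known from DNA repair and the testis, was at 10.76, 10.62 and 10.38 on the miR-9 LNA arrays and at 10.44, 10.36 and 10.02 on the scrambled arrays, a difference of 0.32 ± 0.13 (limma adjusted p = 0.345). Its groups overlapped, but within the numbers it differed by 0.33, 0.26 and 0.36. Its 2 dimmer probe sets gave 0.056 ± 0.18 and 0.17 ± 0.087. PSME1, an interferon-induced activator, differed by 0.18 ± 0.10, with 0.48, 0.013 and 0.039 within the numbers.

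PSMF1, which inhibits the core in vitro, had the smallest difference of the 39 genes at its brightest probe set, at 9.77, 9.98 and 9.83 on the miR-9 LNA arrays and at 9.79, 9.79 and 9.82 on the scrambled arrays, a difference of 0.058 ± 0.070 (limma adjusted p = 0.703). Its second brightest probe set was at 9.40, 9.38 and 9.42 on the miR-9 LNA arrays and at 8.98, 9.19 and 9.07 on the scrambled arrays, a difference of 0.32 ± 0.070 without overlap. This probe set had the smallest p of all tested probe sets of the proteasome genes (limma adjusted p = 0.296). The probe sets of PSMF1 thus disagree on the size of its difference, and a much dimmer one gave -0.047 ± 0.062. Over the 20 proteasome genes with more than 1 tested probe set, 30 probe sets besides the brightest had a median difference of 0.17, with 25 higher and 5 lower. The lower ones belong to PSMB2, PSMB7, PSMF1 and PSMG4, and all 5 were dim. At an unadjusted limma p under 0.05 there were 7 of these 30, all higher, against 13.8% of all 27307 tested probe sets higher and 0.626% lower.

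The 8 other genes that the rule matches were antisense or divergent transcripts and binding partners. PSME3IP1, a partner of PSME3, differed by 0.15 ± 0.085, and PSMC3IP, a factor of meiotic recombination, by 0.079 ± 0.066. The antisense genes PSMD6-AS2, PSMA3-AS1 and PSMB8-AS1 differed by 0.19 ± 0.069, 0.18 ± 0.14 and 0.14 ± 0.064. PSMG3-AS1 was the only match among the tested ones that lay lower, at 7.20, 7.29 and 7.22 on the miR-9 LNA arrays and at 7.48, 7.39 and 7.26 on the scrambled arrays, a difference of -0.14 ± 0.074 (limma adjusted p = 0.409). Its level was close to the filter of 7.11, and of all genes of bin 1, the dimmest, only 29.4% lay higher. Within the numbers it differed by -0.28, -0.099 and -0.038. PSMD7-DT and PSMD14-DT lay below the level filter. None of the 6 tested ones passed the test.

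Genes that work with the proteasome but carry other symbols were counted in the same fit, and 0 of them passed an adjusted p under 0.05. Of 12 partners that bind or assemble the particle, 11 lay higher and 1 lower, with a median difference of 0.24 (0.068 after quantile normalization), 6 of 12 at an unadjusted limma p under 0.05 (17.4% of all genes and 33.3% of bin 5) and 6 of 12 without overlap in the higher direction (22.0% of all genes and 37.0% of bin 5). ECPAS, which tethers the regulatory particle to the core, was at 10.38, 10.14 and 10.11 on the miR-9 LNA arrays and at 9.86, 9.81 and 9.89 on the scrambled arrays, a difference of 0.36 ± 0.083 (limma adjusted p = 0.296). Its 3 scrambled arrays lay close together and below every miR-9 LNA array. USP14, a deubiquitinase of the base, differed by 0.35 ± 0.11, and PITHD1 by 0.28 ± 0.081. ADRM1, a ubiquitin receptor of the regulatory particle, was the partner on the lower side. It was at 9.79, 9.81 and 9.78 on the miR-9 LNA arrays and at 9.86, 9.86 and 9.84 on the scrambled arrays, all 3 miR-9 LNA arrays below the scrambled ones, with a difference of -0.060 ± 0.054 (limma adjusted p = 0.603) and of -0.23 after quantile normalization. No overlap in the lower direction was seen for 3.83% of all genes, 12 of 2473 in bin 4 and 0% of bin 5. ADRM1 is described here after its values were seen.

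All 10 tested genes that deliver ubiquitinated proteins lay higher, with a median difference of 0.19 (0.015 after quantile normalization) and 5 of 10 at an unadjusted limma p under 0.05, where 70.0% of all genes and 96.5% of bin 5 lay higher and 17.4% and 33.3% had such a p. The shuttle factor UBQLN1 differed by 0.27 ± 0.099, the segregase VCP by 0.20 ± 0.078 and its cofactor FAF2 by 0.24 ± 0.096. Among 6 regulators of proteasome gene expression 5 lay higher, with a median of 0.12 (-0.049 after quantile normalization) and 2 of 6 at an unadjusted limma p under 0.05 in the higher direction, against the same 70.0% higher and 17.4% with such a p over all genes. In bin 5 these shares were 96.5% and 33.3%. NFE2L1 itself was at 9.86, 9.97 and 10.12 on the miR-9 LNA arrays and at 9.81, 10.03 and 9.98 on the scrambled arrays, a difference of 0.045 ± 0.091 (limma adjusted p = 0.829) with overlapping groups. NGLY1, the glycanase that processes NFE2L1, was at 9.60, 9.50 and 9.45 on the miR-9 LNA arrays and at 9.07, 9.31 and 9.31 on the scrambled arrays, a difference of 0.29 ± 0.085 (limma adjusted p = 0.296), and NFE2L3 differed by 0.21 ± 0.067. The groups did not overlap for NGLY1 or for NFE2L3, a relative of NFE2L1. These were 2 of the 6, against 22.0% of all genes, 36.7% of bin 4 and 37.0% of bin 5 in that direction. Of the ubiquitin genes and ubiquitin-activating enzymes, UBB differed by 0.15 ± 0.11, UBA6 by 0.045 ± 0.14 and UBA1 by -0.032 ± 0.093. After quantile normalization all 3 lay lower, at -0.0028, -0.11 and -0.23, and without scrambled array 1 they were at 0.031, -0.11 and 0.046, so that UBA6 and UBA1 changed sign. The 12 proteasome genes with TGACNNNGC in a promoter window had a median difference of 0.16, and the 21 tested genes of the promoter table without it 0.20. For CCAAT the medians were 0.15 over the 16 genes with it and 0.24 over the 17 without it.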

How the data were processed

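Total RNA of 6 L428 samples was hybridized to Affymetrix HG-U133 Plus 2.0 arrays. The authors deposited log2 values. Per the submitters' processing notes these came from the affy package by RMA, whose version and options are not given in the sources used here. Array medians lay between 7.10 and 7.15, and the number of arrays limits the precision. The series text names limma after a filter whose threshold is not stated.

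Of 54675 probe sets, 62 controls were set aside. The 27307 probe sets with a mean of at least 7.11, the median of the rest, were tested with limma 3.58.1 in R 4.3.3 (lmFit, then eBayes), two-sided, p-values being adjusted over all of them by Benjamini-Hochberg with a threshold of 0.05. PSMA8, PSMD7-DT and PSMD14-DT were read from a fit without the filter. Backgrounds count the brightest probe set of each of 12367 genes. Names came from the platform annotation, and each of the 48 symbols was found by Entrez ID in RefSeq's GRCh38.p14 genes. Of 60 listed pathway and marker genes, 52 were read.

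The members and lists were chosen with earlier results of these data known. Values on every array are given for the gene of smallest p in each role, the 10 of smallest p in all, and PSMB5, PSMB6, PSMB7 and PSMB10; of each pathway list up to 3 genes of smallest p are named. Further genes given with array values (PSMA4, PSMA8, PSMC4, PSME4, PSMG3-AS1, the second PSMF1 probe set, NFE2L1 and ADRM1) were chosen after their values were seen. Replicate numbers are those of the sample titles, and nothing states what same-numbered samples share. Deviations from the group means correlated at r = 0.231, 0.193 and 0.634 between same-numbered arrays across probe sets, and at -0.429 to 0.168 between others, so the pairing comes from the data. Limma was also run on simulated data with independent noise. These held no shift of a whole array, so that run does not cover such shifts. Plots used matplotlib 3.10.9 and Python 3.11.15.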

Additional observations from a re-analysis of the deposited data

How the results depend on the processing

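Under all 18 refits limma called 0 probe sets at an adjusted p under 0.05, and no proteasome gene had one below 0.133 (PSMD5 with array weights). In the deposited values 14 proteasome genes had an unadjusted p under 0.05. All calls named here are in the higher direction, and the shares in brackets are those of all genes at such a p in that direction, 17.4% in the deposited values. There were 0 after quantile normalization (1.88%), 3 after it with the replicate block (5.44%), 4 with an intensity trend (12.2%), 5 with trend and robust variance (12.5%), 9 with array weights (19.0%), 9 with the 3'-minus-5' covariate (23.1%) and 8 with the level filter at the 75th percentile (20.9% of 7477 genes). In the same order, the shares of bin 5 were 1.17%, 4.04%, 18.4%, 19.2%, 32.1%, 42.9% and 26.3%. Those of the 39 proteasome genes were 0%, 7.69%, 10.3%, 12.8%, 23.1%, 23.1% and 20.5%. Centring each array on its median gave 15 (21.5%, and 38.2% of bin 5), and the fit without the level filter gave 16 (21.7%, and 39.7%). Leaving out each array, or both arrays numbered 1, gave 2 to 18. The 18 came without miR-9 LNA array 3 (15.6%, and 31.4% of bin 5) and without scrambled array 2 (16.1%, and 33.0%). Lower counts were 2 without miR-9 LNA array 1 (9.45%), 4 without miR-9 LNA array 2 (12.3%) and 5 without scrambled array 3 (18.5%). These made up 5.13%, 10.3% and 12.8% of the 39 genes, below the 16.5%, 24.3% and 37.5% of bin 5. There were 7 without scrambled array 1 (12.9%, and 22.8% of bin 5) and 3 without both numbered 1 (9.55%, and 15.9%). The 12 genes without overlap (22.0% of all genes and 37.0% of bin 5) became 0 after quantile normalization (5.40% and 4.32%). With 1 array left out they became 13 to 25, where fewer arrays make overlap rarer. The 25 came without miR-9 LNA array 3 (31.4% and 51.1%) or without scrambled array 2 (30.1% and 51.5%). The 13 came without miR-9 LNA array 1 (26.5% and 40.5%) or array 2 (29.9% and 49.9%), or scrambled array 3 (32.5% and 52.3%). Without scrambled array 1 there were 14 (26.7% and 39.3%). The median difference of 0.20 became 0.029 after quantile normalization (with or without the replicate block), 0.12 with array weights, 0.084 without both arrays numbered 1, and 0.14 to 0.26 with 1 array left out. The replicate block gave 12 genes at an unadjusted p under 0.05 (25.9%, and 46.1% of bin 5). It moved no gene across an adjusted p of 0.05. With the covariate no count of overlap is defined, and a median over all probe sets of a gene has no p.

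The difference turned negative after quantile normalization, with and without the block, for PSMA2 (-0.041), PSMA4 (-0.027), PSMB2 (-0.032), PSMB3 (-0.031), PSMB4 (-0.017), PSMB5 (-0.066), PSMB10 (-0.031), PSMC3 (-0.070), PSMC4 (-0.060), PSMD3 (-0.097), PSMD4 (-0.069), PSMD9 (-0.054), PSMD11 (-0.020), PSME3 (-0.042), PSMF1 (-0.11), PSMG1 (-0.094), PSMG3 (-0.057) and PSMG4 (-0.036). It did so for PSMA4 with array weights (-0.0091), for PSMG3 (-0.0013) and PSMG4 (-0.061) without miR-9 LNA array 1, for PSMF1 (-0.0015) without miR-9 LNA array 2, and for PSMD11 (-0.0016) and PSMD3 (-0.023) without scrambled array 1. Without both arrays numbered 1 it did so for PSMA2 (-0.039), PSMA3 (-0.0031), PSMA4 (-0.068), PSMB3 (-0.0067) and PSMD11 (-0.023). The highest differences of these genes with arrays left out were 0.24 for PSMA2, 0.31 for PSMA3, 0.21 for PSMA4, 0.22 for PSMB3, 0.13 for PSMD3, 0.26 for PSMD11, 0.10 for PSMF1, 0.22 for PSMG3 and 0.35 for PSMG4. The median over all probe sets was negative for PSMB2 (-0.027). The causes were not tested. The quantile fit with the block and the fit without both arrays numbered 1 were chosen after seeing the data.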
